A study of Canis lupus familiaris with 7 samples.

Results

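Chemokines and their receptors were followed in 7 canine bone RNA samples, 4 of non-tumor bone (N1, N3, N8 and N9) and 3 of osteosarcoma (OSA) tumor (T1, T3 and T10). The genes were chosen by symbol alone, from rows that begin with CCL, CXCL, CX3CL, XCL, CCR, CXCR, CX3CR, XCR or ACKR and a digit, or that read *IL8*. Of the 24580 genes listed, 45 are described, 27 ligands and 18 receptors. All samples were pieces of bone of dogs (Canis lupus familiaris), taken at amputation or directly after euthanasia. The non-tumor group was grossly non-malignant bone cut next to a tumor, so it was not bone of healthy dogs. Breed, age, sex and treatment of each sample are not given in the sources used here. The tissues are described as matched, but no source states that N1 and T1, or N3 and T3, came from 1 dog, and the groups were compared without pairing.

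Chemokines are small secreted proteins that steer moving cells by binding G protein-coupled receptors on the cell surface. Their names follow the spacing of conserved cysteines (CC, CXC, CX3C and XC). Homeostatic members such as *CXCL12* hold cells in place, and in bone marrow stromal CXCL12 retains blood stem cells and B cell precursors that carry CXCR4. Inflammatory members such as *CCL2* and *IL8* (CXCL8) are induced at sites of damage and draw in monocytes and neutrophils. Atypical receptors such as *CXCR7* (ACKR3), *ACKR2*, *ACKR4* and *DARC* (ACKR1) bind chemokines without classical G protein signalling and clear or redistribute them.

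Levels are given in FPKM (fragments scaled by transcript length and by the mapped total of the sample), so that values of different genes can be set side by side. The table holds no counts, and depth can only be given relative to N1. Read from the steps between the lowest values, the number of fragments behind 1 FPKM ran from 0.544 times that of N1 (in N8) to 1.45 times (in T10). An FPKM of 0 may be a failed estimate, so such values are reported as listed at 0. The sources used here do not say which samples are separate dogs, so p-values measure the spread between these samples. The groups were compared by limma on log2(FPKM + 1), a scale that understates the change of low genes. A gene passed when its log2 fold change reached 1 in size and its p before adjustment was under 0.05. Genes whose FPKM averaged less than 1 were left out, and 13507 genes remained.

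Of the 45 chemokine genes, 26 met this mean and were tested, 18 ligands and 8 receptors. The ligands *CCL2* and *CCL13* were higher in OSA tumor, the ligands *CXCL12* and *CCL14* and the receptors *CXCR6* and *ACKR4* were lower, and the other 20 did not pass. These 6 genes were 23.1% of those tested, where 6.86% of all tested genes passed (3.28% higher and 3.58% lower). The number fell to 3 without N8 and to 2 without T3. *CCL13*, listed at 0 in every non-tumor sample, met the mean through the tumor samples alone, so its direction was fixed by the filter. The same holds for *ACKR4*, which met the mean through the non-tumor samples alone and had at most 0.378 FPKM in a tumor sample. The place of both genes in these counts, and of *CCL13* in those of groups that do not overlap, supports nothing. Of the other 4, *CXCL12* passed whichever of the 7 samples was left out. An adjusted p under 0.05 by limma was reached by 0 chemokine genes and 0 of all genes. The smallest adjusted p was 0.693, while 927 of all genes had an unadjusted p under 0.05. The groups did not overlap in 4 of the 26 genes (15.4%), *CCL2*, *CCL13*, *CXCL12* and *CCL14*, against 5.85% of all tested genes (3.04% higher and 2.81% lower). The median log2 fold change was 0.39 over the tested ligands and -0.73 over the tested receptors, against -0.02 over all tested genes. These medians are a description and support no contrast of ligands with receptors, because they include genes that met the mean through 1 group alone. Those genes were *CCL13*, *CCL17*, *CCL21* and *CCL24* among the ligands, and *ACKR4* and *CCR3* among the receptors.

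**Figure D1:**
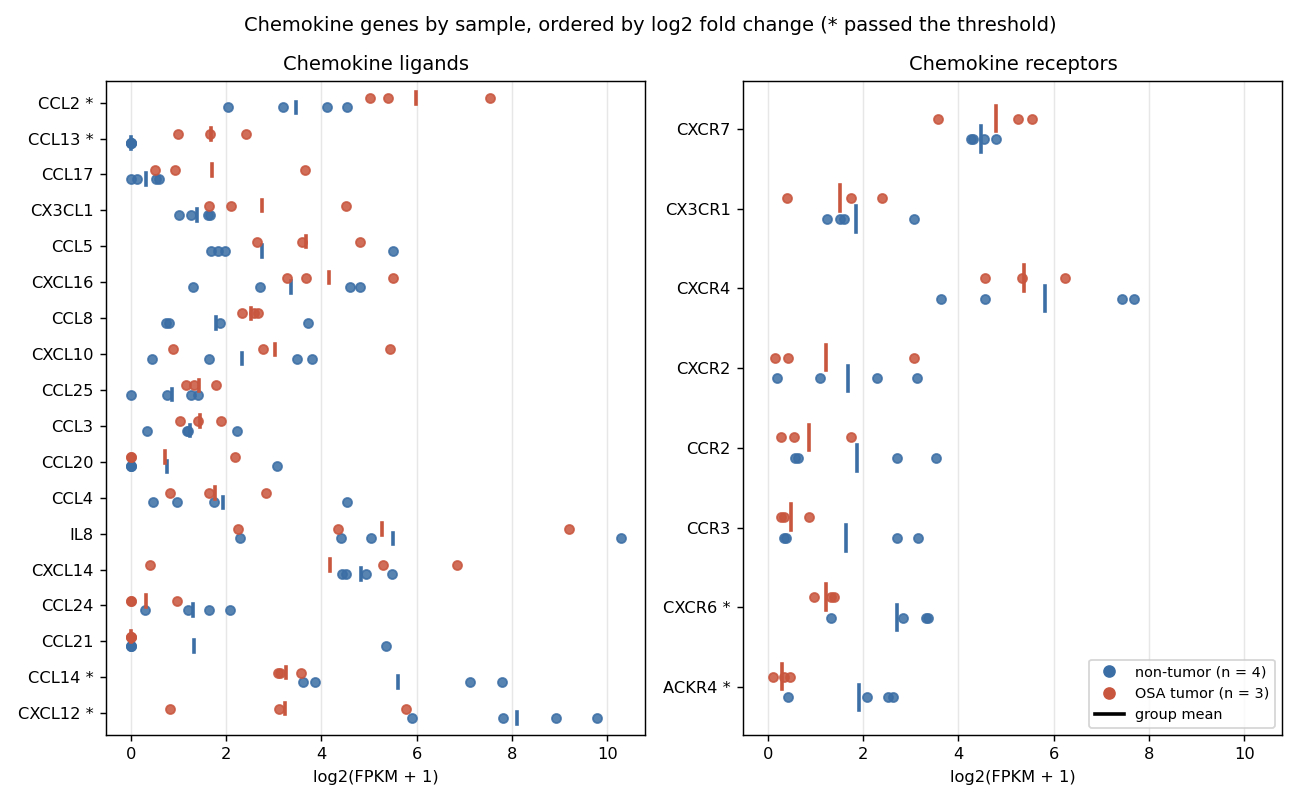
Levels of the 26 tested chemokine genes as log2(FPKM + 1), ligands at left and receptors at right, ordered by log2 fold change. Points are samples (blue, 4 non-tumor; red, 3 OSA tumor), short lines are group means and stars mark genes past the threshold. *CCL2* and *CCL13* lie at the top with every tumor sample above every non-tumor sample, and *CXCL12* and *CCL14* at the bottom with every tumor sample below.

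*CXCL12*, the ligand of CXCR4 and CXCR7, had the lowest log2 fold change of the family. Its FPKM were 59.1 (N1), 884 (N3), 488 (N8) and 225 (N9). In tumor samples they were 53.5 (T1), 7.71 (T3) and 0.781 (T10). Every tumor sample lay below every non-tumor sample, but T1 and N1 were close to each other while T10 was nearly without the transcript. The means were 414 ± 359.5 FPKM (SD, n = 4) in non-tumor and 20.7 ± 28.7 FPKM (SD, n = 3) in OSA tumor. The log2 fold change was -4.87 ± 1.20 (SE, unadjusted p = 0.00269 by limma and 0.693 after adjustment). The two-sided exact permutation test gave p = 0.0571, the smallest that the 35 splits of 7 samples into 4 and 3 allow. Only 52 of the 13507 tested genes had a lower log2 fold change. Leaving out 1 sample moved it between -6.14 (without T1) and -3.67 (without T10). The gene (ENSCAFG00000007026) lies on chromosome 28 from 2895915 to 2899207 in CanFam3.1.

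In bulk tissue, fewer cells of a type and less RNA per cell cannot be told apart. Among 8 marrow stroma markers (the list holds *LEPR*, *KITLG* and the PDGF receptors), 1 was lower and 7 did not pass. Their summed level was 109 to 234 FPKM in non-tumor bone and 120 to 153 FPKM in tumors, so the groups overlapped. This sum mixes directions, as 3 of the 8 had a positive log2 fold change, and the median over the 8 was -0.72. Of 9 endothelial markers, 4 were lower, with sums of 85.8 to 359 FPKM against 30.04 to 112 FPKM. For this and the counts that follow, the share of all tested genes that were lower was 3.58%. Among the 9 osteoblast markers 0 passed, with sums of 162 to 7440 FPKM in non-tumor and 1929 to 12731 FPKM in tumor samples. Among markers of other tissues, 8 of 9 skeletal muscle markers were lower (sums of 74.8 to 84222 FPKM against 5.10 to 6.50 FPKM) as were 4 of 5 adipocyte markers (38.3 to 282 FPKM against 10.1 to 44.7 FPKM). Of the blood cell lists, 7 of 10 neutrophil markers were lower (sums of 708 to 67647 FPKM against 68.3 to 1993 FPKM) and 4 of 7 erythroid markers (37.3 to 3938 FPKM against 31.6 to 114.7 FPKM), and both lists, like *CXCL12*, were highest in N3 and N8. Most of the muscle and adipocyte markers counted as lower, and all of the erythroid ones, had tumor means under 1 FPKM and met the filter through the non-tumor samples alone, so these counts, too, support nothing. Among the neutrophil markers counted as lower, *MPO* also had a tumor mean under 1 FPKM. The part of these cells in the *CXCL12* difference was not tested.

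The leading ligand differed between samples. Of the summed ligand FPKM, *CXCL12* made up 40.7% (N1), 34.6% (N3), 63.6% (N8) and 75.6% (N9) in non-tumor samples. In tumor samples it made up 32.2% (T1), 0.731% (T3) and 0.569% (T10). It ranked first of the 27 ligands in N1, N8, N9 and T1, second to *IL8* in N3, and at position 9 in T3 and 14 in T10. *CCL2* made up 11.3% (N1), 0.877% (N3), 1.06% (N8) and 1.04% (N9), against 18.8% (T1), 17.5% (T3) and 30.2% (T10). Every tumor sample thus held a larger *CCL2* share than any non-tumor sample. The ratio of *CCL2* to *CXCL12* ran from 0.0137 (N9) to 0.277 (N1) in non-tumor samples and was 0.585 (T1), 24.0 (T3) and 53.1 (T10). These shares rest on the same values as the comparisons of the single genes and are no separate evidence.

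**Figure D2:**
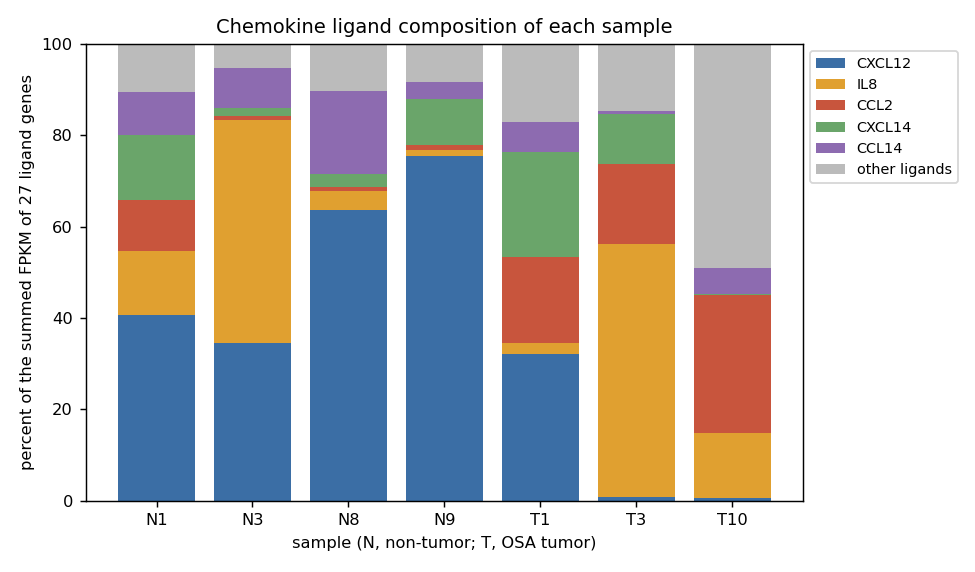
Share of each sample's summed ligand FPKM (vertical axis, percent, 27 ligand genes) held by *CXCL12*, *IL8*, *CCL2*, *CXCL14*, *CCL14* and all other ligands, 1 bar per sample. *CXCL12* fills 34.6% to 75.6% of the non-tumor bars and 32.2% of T1, and is hardly visible in T3 and T10.

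The monocyte chemoattractants *CCL2*, *CCL7*, *CCL8* and *CCL13*, ligands of CCR2, lay next to one another on chromosome 9. With *CCL1*, listed at 0 in all 7 samples, they fill 76.3 kb from 38933792 to 39010042. Of these 4, 2 were higher in OSA tumor, *CCL8* did not pass, and *CCL7* was under the filter. *CCL2* (ENSCAFG00000018349, from 39007882 to 39010042) had 16.4 (N1), 22.4 (N3), 8.12 (N8) and 3.09 (N9) FPKM. In tumor samples it had 31.3 (T1), 185 (T3) and 41.5 (T10) FPKM. All tumor values were above all non-tumor values, and T3 held 71.7% of the tumor sum. The means were 12.5 ± 8.58 FPKM (SD, n = 4) and 85.9 ± 85.9 FPKM (SD, n = 3). Its log2 fold change of 2.51 ± 0.79 (SE, unadjusted p = 0.0102 by limma and 0.693 after adjustment, and an exact two-sided permutation p of 0.0571) was the highest of the family. *CCL2* no longer passed without T3 (1.74), and ran from 2.04 to 3.0 when any other sample was left out.

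*CCL13* (ENSCAFG00000024205, from 38938944 to 38940231), which encodes the protein also called MCP-4, was listed at 0 in all 4 non-tumor samples. In tumor samples it had 0.981 (T1), 4.37 (T3) and 2.15 (T10) FPKM. Its mean over all 7 samples was 1.07 FPKM, just over the filter. These values are given as a description, with no fold or p, because 1 group was listed at 0. *CCL7* (MCP-3) had the same arrangement at lower levels, listed at 0 in all 4 non-tumor samples and at 0.370 (T1), 2.98 (T3) and 0.802 (T10) FPKM. It was under the filter and was not tested. *CCL8* (MCP-2) had 0.751 (N1), 12.1 (N3), 2.64 (N8) and 0.669 (N9) FPKM, against 4.01 (T1), 5.004 (T3) and 5.35 (T10). N3 was above every tumor sample and the other 3 non-tumor samples were below, with a log2 fold change of 0.74 ± 0.74 (SE); without N3 it was 1.39 and passed. Macrophage markers, 9 tested, had 0 genes past the threshold and summed to 61.1 to 1041 FPKM in non-tumor and 200.3 to 582 FPKM in tumor samples.

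The second run of ligands on chromosome 9, *CCL4*, *CCL3*, *CCL14*, *CCL16* and *CCL5* within 143 kb from 37681034 to 37823880, behaved differently from gene to gene. *CCL14* (ENSCAFG00000018169, from 37782957 to 37786011), a ligand found in plasma that binds CCR1 once processed, had 13.7 (N1), 221 (N3), 139 (N8) and 11.2 (N9) FPKM. Its tumor values were 10.9 (T1), 7.49 (T3) and 7.80 (T10) FPKM. Tumor samples were all lower, but N1 and N9 stood just above T1, and the distance came from N3 and N8. The log2 fold change was -2.34 ± 1.02 (SE, unadjusted p = 0.0469 by limma and 0.693 after adjustment, and an exact two-sided permutation p of 0.0571). It passed without N1 (-2.91) or N9 (-3.0). It did not pass without N3 (-1.60), N8 (-1.83), T1 (-2.49), T3 (-2.24) or T10 (-2.27), nor with quantile normalization (-2.23) or without the filter on low genes (-2.34).

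The inflammatory ligands *CCL3* (MIP-1 alpha), *CCL4* (MIP-1 beta) and *CCL5* (RANTES) attract T cells and macrophages, and 0 of the 3 passed. *CCL5* had 2.95 (N1), 44.3 (N3), 2.58 (N8) and 2.23 (N9) FPKM, and 5.32 (T1), 11.1 (T3) and 26.9 (T10). N3 was above all tumor samples, and the other 3 non-tumor samples were below all of them. The log2 fold change was 0.93 ± 0.97 (SE), and it was 1.85 and passed without N3. *CCL4* ran from 0.380 to 22.3 FPKM in non-tumor and from 0.761 to 6.14 FPKM in tumor samples, again with N3 highest. *CCL3* ran from 0.276 to 3.67 FPKM against 1.06 to 2.70 FPKM. *CCL16* stayed under 1 FPKM in all samples.

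Among the receptors, *CXCR6*, the receptor of CXCL16 on T cell subsets and natural killer T cells, was lower in OSA tumor. It had 1.51 (N1), 8.93 (N3), 9.32 (N8) and 6.11 (N9) FPKM, against 1.62 (T1), 0.957 (T3) and 1.51 (T10). N1 lay among the tumor samples and the other 3 non-tumor samples well above them. The means were 6.47 ± 3.60 FPKM (SD, n = 4) and 1.36 ± 0.355 FPKM (SD, n = 3), with a log2 fold change of -1.48 ± 0.60 (SE, unadjusted p = 0.0338 by limma and 0.693 after adjustment, and an exact two-sided permutation p of 0.114). It passed without N1 (-1.94) but not without N3 (-1.28), N8 (-1.26), N9 (-1.44), T1 (-1.56), T3 (-1.35) or T10 (-1.53), nor with FPKM rescaled to the same sum (-1.33) or quantile normalization (-1.36). Its interval on chromosome 20, from 42520246 to 42590690, is shared by 2 listed genes. The T cell and NK cell markers summed to 6.79 (N1), 314 (N3), 166 (N8) and 35.04 (N9) FPKM, and to 5.48 to 21.9 FPKM in tumor samples. Of 9 such markers tested, 1 was lower and 8 did not pass, and *NKG7* and *CD8A* were each listed at 0 in some samples of both groups. *NKG7*, a granule protein of cytotoxic cells, was the lower gene and alone gave 192 (N3), 140 (N8) and 31.4 (N9) FPKM of these sums, while listed at 0 in N1, T1 and T10. Without it, the sum in N9 lay below that of every tumor sample. The part of these cells in the *CXCR6* difference was not tested.

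*ACKR4*, an atypical receptor that scavenges the CCR7 ligands CCL19 and CCL21 and the CCR9 ligand CCL25, was also lower. It had 0.334 (N1), 3.24 (N3), 5.20 (N8) and 4.75 (N9) FPKM, and 0.0713 (T1), 0.273 (T3) and 0.378 (T10). N1 again fell within the tumor range. The means were 3.38 ± 2.20 FPKM (SD, n = 4) and 0.241 ± 0.156 FPKM (SD, n = 3). The log2 fold change of -1.61 ± 0.64 (SE) is given as a description, with no p, because the gene met the filter through the non-tumor samples alone. With 1 sample left out this fold ran from -2.11 (without N1) to -1.37 (without N8), and it was -1.44 with FPKM rescaled to the same sum. Its interval on chromosome 23, from 29538679 to 29645176, is shared by 2 listed genes. As with *ACKR4* and *CXCR6*, N1 was the lowest non-tumor sample for the neutrophil, T cell and NK cell, erythroid, platelet, endothelial, adipocyte and skeletal muscle markers. The adipocyte markers had sums of 38.3 (N1), 168 (N3), 165 (N8) and 282 (N9) FPKM against 10.1 to 44.7 FPKM in tumor samples. Skeletal muscle markers summed to 74.8 (N1), 1229 (N3), 84222 (N8) and 53148 (N9) FPKM. The part of these cells and tissues in the *ACKR4* and *CXCR6* differences was not tested.

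Under its older symbol, the atypical receptor *DARC* (ACKR1), which is carried by red cells and by the endothelium of small veins, was the 1 lower gene among 4 tested relatives of the family listed under other symbols. It had 0.360 (N1), 3.91 (N3), 7.51 (N8) and 4.13 (N9) FPKM, and 0.0549 (T1), 0.0623 (T3) and 0.0178 (T10). All tumor samples were below all non-tumor samples. The log2 fold change of -1.98 ± 0.66 (SE) is a description only, because *DARC* too met the filter through the non-tumor samples alone. Of 7 erythroid markers, 4 were lower, each of them tested through its non-tumor level alone, with sums of 37.3 to 3938 FPKM in non-tumor and 31.6 to 114.7 FPKM in tumor samples. *SLC4A1* was listed at 0 in a tumor sample, and the part of red cell precursors and of endothelium in the *DARC* difference was not tested. The scavenger *ACKR2* stayed between 0.0976 and 1.22 FPKM in the 7 samples and was under the filter.

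The receptors of CXCL12 did not follow their ligand past the threshold. *CXCR4* (ENSCAFG00000005109, chromosome 19 from 38873992 to 38877889) was the most abundant receptor in N3, N8, T3 and T10. It had 22.6 (N1), 206 (N3), 171 (N8) and 11.4 (N9) FPKM, against 22.5 (T1), 73.9 (T3) and 39.3 (T10). The tumor samples all fell between N9 and N8. The log2 fold change was -0.46 ± 1.01 (SE, unadjusted p = 0.663 by limma). Its sign was not stable, with 0.17 without N3 and 0.08 without N8. *CXCR7* (ENSCAFG00000012206, chromosome 25 from 47337656 to 47339632), the atypical receptor that takes up CXCL12, was the most abundant receptor in N1, N9 and T1. It kept to 18.2 to 26.6 FPKM in non-tumor samples and had 37.3 (T1), 45.9 (T3) and 10.95 (T10) FPKM in tumors. Its log2 fold change was 0.32 ± 0.55 (SE), and -0.06 without T3.

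Ligand and receptor were then set side by side within each sample, as the difference of their log2(FPKM + 1) values. This was done for 11 pairs of known partners, which share genes and are not independent of each other. In 8 of the 11 pairs the groups did not overlap, where 25% of all 144 combinations of a tested ligand with a tested receptor behaved so. Of these 8, 5 hold *CXCL12*, *CCL2* or *CCL13*, whose groups did not overlap by themselves, and 2 of the 5 rest on *CCL13*, listed at 0 in every non-tumor sample. The pairs of *CCL5* and of *CCL13* with *CCR3* hold a receptor that met the filter through the non-tumor samples alone, so they support nothing. The pairs were chosen with earlier results known, so this share is no separate evidence. Each of these 8 had a two-sided exact permutation p of 0.0571, the smallest possible here, and an adjusted p of 0.0786 over the 11 pairs. The design therefore could not bring any pair under 0.05.

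For CXCL12 and CXCR4 the ligand exceeded the receptor by 1.35 (N1), 2.10 (N3), 1.51 (N8) and 4.20 (N9) on the log2 scale, and in tumor samples the difference was 1.21 (T1), -3.10 (T3) and -4.50 (T10). The ligand was thus more abundant than its receptor in all 4 non-tumor samples and in T1, and less abundant in T3 and T10. In FPKM, *CXCL12* was 2.62 to 19.8 times *CXCR4* in non-tumor samples, 2.38 times in T1, 0.104 times in T3 and 0.0199 times in T10. The group means were 2.29 ± 1.31 (SD, n = 4) and -2.13 ± 2.98 (SD, n = 3). For CXCL12 and CXCR7 they were 3.64 ± 1.82 (SD, n = 4) and -1.55 ± 1.80 (SD, n = 3).

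The CCR2 axis went the other way. The difference between *CCL2* and *CCR2* was 3.48 (N1), 1.02 (N3), 0.48 (N8) and 1.46 (N9), against 4.46 (T1), 7.27 (T3) and 3.66 (T10). All tumor samples were above all non-tumor samples, although N1 came close to T10. *CCR2* itself, the receptor of monocytes, had 0.559 (N1), 10.5 (N3), 5.52 (N8) and 0.489 (N9) FPKM, against 0.464 (T1), 0.203 (T3) and 2.37 (T10). Its log2 fold change was -1.01 ± 0.83 (SE, unadjusted p = 0.255 by limma). The difference between *CCL8* and *CCR2* was -0.08 ± 0.51 (SD, n = 4) in non-tumor and 1.67 ± 0.71 (SD, n = 3) in tumor samples.

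*CXCL16*, a membrane-bound ligand and scavenger receptor, exceeded *CXCR6* by 0.65 ± 1.45 (SD, n = 4) in non-tumor and 2.93 ± 1.41 (SD, n = 3) in tumor samples. *CXCL16* had 5.60 (N1), 27.2 (N3), 23.4 (N8) and 1.48 (N9) FPKM, against 8.76 (T1), 44.6 (T3) and 11.8 (T10). The ligand alone did not pass (log2 fold change 0.79 ± 0.92 SE), and its interval is shared by 2 listed genes. The other pairs without overlap were *CCL5* with *CCR3* and *CCL13* with *CCR2* and with *CCR3*.

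**Figure D3:**
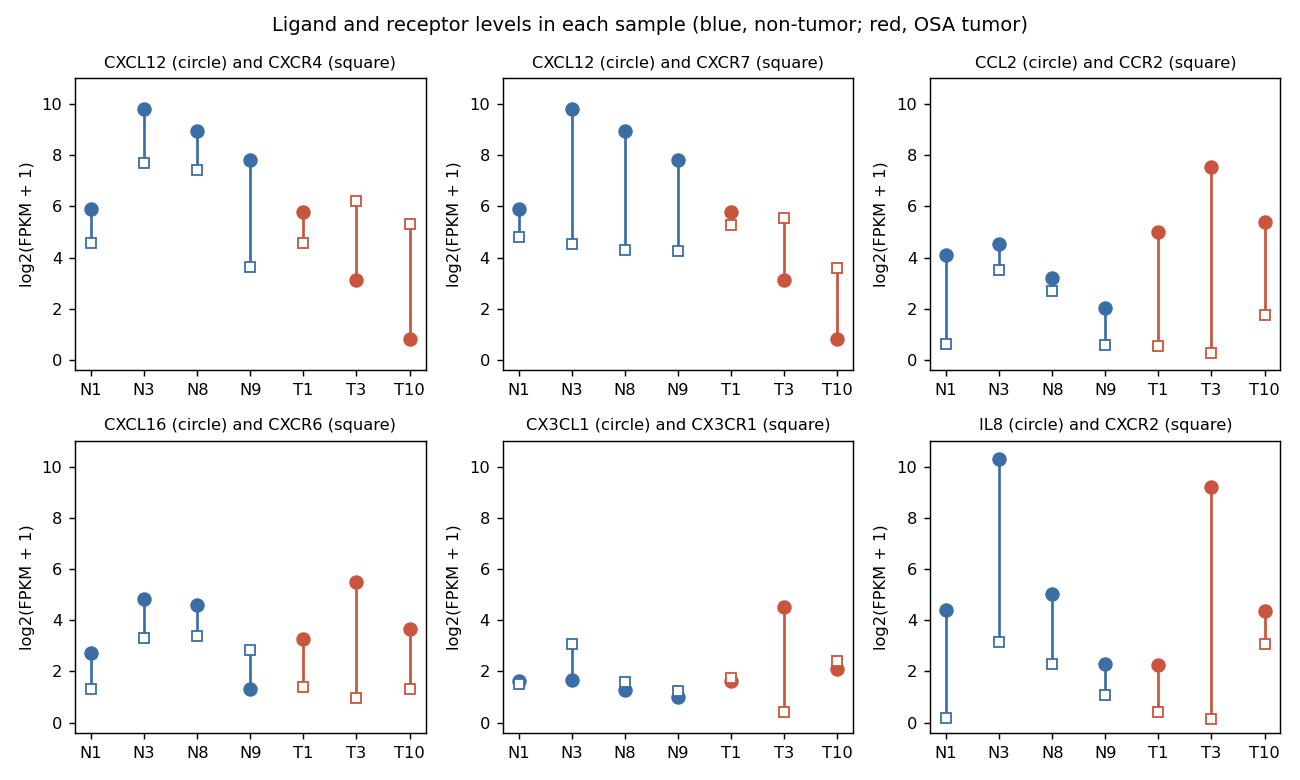
Ligand (circle) and receptor (open square) as log2(FPKM + 1) in each of the 7 samples for 6 pairs, joined by a line (blue, non-tumor; red, OSA tumor). In the *CXCL12* panels the circle is above the square in all 4 non-tumor samples and T1 and below it in T3 and T10, and in the *CCL2* panel the 3 tumor lines are the longest.

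The pairs of fractalkine and of the neutrophil axis overlapped between the groups. *CX3CL1* (fractalkine), a ligand tethered to endothelium and epithelium, had 1.02 to 2.16 FPKM in non-tumor samples, 2.10 (T1), 22.1 (T3) and 3.31 (T10). T3 held 80.3% of its tumor sum, and the log2 fold change was 1.36 ± 0.71 (SE, unadjusted p = 0.0849 by limma). It passed without T1 (1.92). Its receptor *CX3CR1* had 1.35 to 7.40 FPKM in non-tumor and 0.320 to 4.27 FPKM in tumor samples, with T3 lowest. *IL8*, the main neutrophil attractant, was the most variable ligand in both groups on the log2 scale. It had 20.2 (N1), 1248 (N3), 32.0 (N8) and 3.90 (N9) FPKM, and 3.74 (T1), 585 (T3) and 19.4 (T10). The spread within each group was far larger than the distance between them (log2 fold change -0.24 ± 1.97 SE).

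*CXCR2*, the receptor of IL8 on neutrophils, had 0.138 (N1), 7.79 (N3), 3.90 (N8) and 1.14 (N9) FPKM, against 0.344 (T1), 0.112 (T3) and 7.44 (T10). T3, the tumor sample with the most *IL8*, thus had the lowest *CXCR2* of the 7 samples. Neutrophil markers summed to 708 (N1), 60353 (N3), 67647 (N8) and 2064 (N9) FPKM, and to 68.3 (T1), 889 (T3) and 1993 (T10). Of the 10 tested, 7 were lower, where 3.58% of all tested genes were, and *CTSG* was listed at 0 in a tumor sample. *MPO*, among these 7, had a tumor mean of 0.919 FPKM and met the filter through the non-tumor samples.

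A large part of the family peaked in the samples numbered 3. Of the 26 tested genes, 13 had their highest value of all 7 samples in N3 and 9 in T3. Together this was 84.6% of them, against 29.3% of all tested genes. Among ligands with their peak in T3, the share of the tumor sum held by T3 was 86.4% for *CXCL10*, an interferon-induced CXCR3 ligand, and 89.7% for *CCL17*, a CCR4 ligand. It was 74.7% for *CXCL14*, a ligand of epithelium and stroma, and 68.4% for *CXCL16*. T3 had 17 ligands but only 2 receptors, *CXCR4* and *CXCR7*, at 1 FPKM or more, whereas N3 had 16 ligands and 11 receptors. The number of receptors at this level was 4 in N1, 9 in N8, 7 in N9, 4 in T1 and 7 in T10. The shared number is given by the labels, and whether it marks 1 dog is not stated.

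*CXCL14* had 20.6 (N1), 43.5 (N3), 21.8 (N8) and 29.8 (N9) FPKM, an even level, and was spread in tumor samples from 0.325 in T10 to 38.4 in T1 and 115 in T3. Its log2 fold change was -0.65 ± 1.27 (SE) and turned to 1.24 without T10. *CXCL10* had 0.362 (N1), 10.3 (N3), 2.12 (N8) and 12.9 (N9) FPKM, against 0.838 (T1), 42.5 (T3) and 5.83 (T10). Its log2 fold change of 0.69 ± 1.14 (SE) turned to -0.52 without T3. Neither gene separated the groups.

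The receptor genes *CCR2*, *CCR3*, *XCR1*, *CXCR6* and *CCR9* lay within 309 kb of chromosome 20, from 42307580 to 42616823. Of the 3 tested, only *CXCR6* passed. *CCR3*, the eosinophil receptor of CCL24, had 0.258 (N1), 7.82 (N3), 5.50 (N8) and 0.306 (N9) FPKM, against 0.207 (T1), 0.264 (T3) and 0.821 (T10) (log2 fold change -1.15 ± 0.80 SE). Its fold, too, is a description only, because the gene met the filter through the non-tumor samples alone. Both *CCR2* and *CCR3* were high in N3 and N8 and low in N1 and N9, as *CXCR4* was. Chemokine receptor genes of such a cluster are related in sequence, and how fragments shared by similar copies were split is not given in the sources used here.

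The remaining tested ligands were each listed at 0 in at least 1 sample. *CCL24* (eotaxin-2) had 0.224 to 3.21 FPKM in non-tumor samples and 0.963 FPKM in T1, and was listed at 0 in T3 and T10 (log2 fold change -0.98 ± 0.60 SE). That fold is a description only, because *CCL24* met the filter through the non-tumor samples alone. *CCL25* reached 2.48 FPKM in T3 and was listed at 0 in N8. *CCL20*, the CCR6 ligand, was above 0 only in N3 (7.36 FPKM) and T3 (3.55 FPKM). *CCL21*, a CCR7 ligand of lymphatic vessels and lymph nodes, was above 0 only in N8 (39.9 FPKM), on an interval of 196 bases.

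The 19 genes under the filter were 9 ligands and 10 receptors, and none of them exceeded 2.98 FPKM. In 10 of them every sample was under 1 FPKM. Besides *CCL7*, the 9 that reached 1 FPKM in some sample were *CCL19*, *CXCL17*, *ACKR2*, *CCR6*, *CCR7*, *CCR8*, *CCR9* and *CXCR3*. *CCR8*, a receptor of regulatory T cells, reached 2.13 FPKM in T10, and *CXCR3*, on activated T cells, reached 1.83 FPKM in N8. *CCL1* was listed at 0 in all 7 samples.

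Signalling genes downstream of the receptors were counted from a list of 37 symbols, 35 of them tested. *GNAI1*, a G protein alpha subunit of the inhibitory class, was higher, and *ARRB1* (beta-arrestin 1), *ADRBK1* (the receptor kinase GRK2) and *PXN* (paxillin) were lower. The other 31 did not pass, and the median log2 fold change was -0.57. *GNAI1* had 9.27 to 14.9 FPKM in non-tumor samples and 22.6 (T1), 20.3 (T3) and 171 (T10) (log2 fold change 1.77 ± 0.73 SE, unadjusted p = 0.0374 by limma). With 1 sample left out it passed only without T1 (2.22) or T3 (2.30), and it was 0.79 without T10. *ARRB1* (-1.27) and *ADRBK1* (-1.50) passed only without N1, N9 or T1, and *PXN* (-1.26) only without N1, T1 or T3. *GNB2* and *RGS2*, the genes of the list with the highest means, had log2 fold changes of -0.02 and -0.28. Of 20 tested cytokines and NF-kB genes that induce chemokines, only *IKBKB* passed, lower at -1.25 ± 0.55 (SE, unadjusted p = 0.0462 by limma), and of the 7 fits it passed only without N1 (-1.49) or T1 (-1.66). Beside the shares of 3.28% and 3.58% of all genes, these counts were 1 higher of 35, 3 lower of 35 and 1 lower of 20.

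The remaining marker lists describe what else the pieces of bone held. B cell markers (0 of 7 passed) summed to 11.8 to 206 FPKM in non-tumor and 18.2 to 26.1 FPKM in tumor samples, megakaryocyte and platelet markers (0 of 4) to 13.7 to 163 and 11.02 to 48.9 FPKM, and osteoclast markers (0 of 6) to 182 to 1614 and 458 to 3369 FPKM. The neutrophil, macrophage, erythroid, T cell and NK cell, B cell and platelet lists were highest in N3 and N8, the samples in which the tested genes *CXCL12*, *CXCR4*, *CXCR6*, *CCR2*, *CCR3* and *CCL14* were highest. Their part in those levels was not tested.

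**Figure D4:**
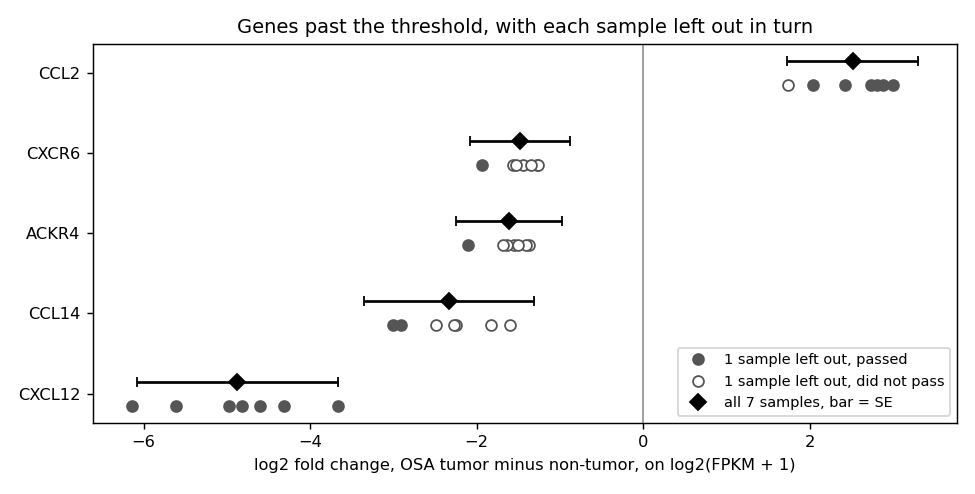
Log2 fold change (OSA tumor minus non-tumor, on log2(FPKM + 1)) of 5 of the 6 chemokine genes past the threshold, with the standard error over all 7 samples (diamond and bar) and the values with each sample left out (circles, filled where the gene passed). *CXCL12* passed in all 7 of these fits, *CCL2* in 6, *CCL14* in 2 and *CXCR6* in 1. The values of *ACKR4* are drawn as a description only, because it met the filter through the non-tumor samples alone. *CCL13* is not drawn because its non-tumor samples were listed at 0.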

How the data were processed

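Libraries of 4 non-tumor and 3 OSA tumor samples were paired-end and strand-specific (Illumina TruSeq, HiSeq). The authors removed adapters and low-quality bases (Trim Galore), mapped to CanFam3.1 using Tophat2 and the Ensembl iGenomes build, and deposited Cufflinks/Cuffdiff FPKM for each gene and sample. Tool versions, the strand setting and scaling between libraries are not given in the sources used here. All 7 columns were used and 0 left unused. From the authors' comparison table only gene intervals were taken (1 added to each start); its group values, fold changes, test statistics, p-values and q-values were not used.

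Genes averaging at least 1 FPKM were put on the log2(FPKM + 1) scale and the groups compared by limma 3.58.1 (R 4.3.3) with a mean-variance trend and Benjamini-Hochberg adjustment over all tested genes. The fit was tested on simulated data. Exact permutation tests used Python 3.11.15 and scipy 1.17.1. The members, pathway lists, marker lists and pairs were chosen with earlier results of these data known. Any member could be named; full values were given for members that passed, did not overlap between groups, were among the 10 with the highest mean FPKM or belonged to a tested pair. Left out were 1 gene matched by symbol and 1 marker gene, which are not reported here. Of pathway genes, those that passed and at most 3 of the most abundant were named. Marker lists covered neutrophil granulocyte, macrophage, T cell and NK cell, B cell, marrow stroma, endothelium, osteoblast, osteoclast, erythroid, megakaryocyte and platelet, adipocyte and skeletal muscle. Alternatives changed the pseudocount (0.1), filter, scaling, trend, sample weights, pairing and samples. No counts were analysed, so no counting interval is given.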

Additional observations from a re-analysis of the deposited data

Results flagged for a closer look

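In 3 of 26 tested chemokine genes, 1 non-tumor sample stood apart from the other 3 by a gap to the nearest sample that exceeded Dixon's 95% critical share of the group's whole range on the log2(FPKM + 1) scale; chance alone gives about 1 in 20 groups. For *CCL5* this was N3, at 0.925 of the range. For *CCL20* it was N3 and for *CCL21* N8, each at 1 because the other 3 samples were listed at 0.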

How the results depend on the processing

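Over 17 alternatives, *CXCL12* lost its call in 1 (-3.40 with the replicate block, fixed), *CCL2* in 1, *CCL14* in 8 and *CXCR6* in 9, and 0 of these changed sign. A filter of 1 FPKM in at least 3 samples left out *CCL13*, so that 1 higher gene passed. The lower calls were 2 with FPKM rescaled to the same sum and 2 with quantile normalization, against 4; rescaling to the same sum moved the median of all genes by 0.15. Of all genes called, 64.5% were lower with that rescaling, 42.8% with quantile normalization and 52.2% as deposited. The all-gene count of 926 became 1857 with sample weights. With 1 sample left out it ran from 319 (without N8) to 1997 (without N1), with 603 without T3 and 424 without T10, higher chemokine genes from 1 to 4 and lower ones from 1 to 5. Samples with the same number deviated together (r of 0.42 for N1 and T1 and 0.21 for N3 and T3, over genes), but 2 pairs do not settle that the numbers pair dogs. With the replicate block, random, 1062 genes and 7 chemokine genes passed, *CCL17* (1.58) being added. With the replicate block, fixed, over N1, N3, T1 and T3, 241 genes passed, with 3 higher chemokine genes (*CCL2*, *CCL13*, *CCL17*) and 1 lower (*IL8*, -1.63). *CCL13* and *CCL17* met the filter through the tumor samples alone, so their calls with either block support nothing. With the fixed block *CCL14* (-2.50), *CXCR6* (-1.14) and *ACKR4* (-1.03) did not pass either.

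In 11 genes that did not pass, the sign turned in some alternative. With a pseudocount of 0.1 *CCL20* was 0.17, and 0.044 with quantile normalization. With the random block *CCL3* was -0.027, and with the fixed block *CCL3* was -0.48, *CCL5* -0.61 and *CXCL14* 1.12. Without 1 sample the ranges were -0.77 to 0.73 for *CCL20*, -0.090 to 0.53 for *CCL3*, -0.69 to 0.71 for *CCL4*, -0.78 to 0.22 for *CX3CR1*, -0.52 to 1.76 for *CXCL10*, -1.99 to 1.24 for *CXCL14*, -1.39 to 0.073 for *CXCR2*, -1.19 to 0.17 for *CXCR4*, -0.056 to 0.93 for *CXCR7* and -2.21 to 1.35 for *IL8*. The cause was not tested. In 2 pairs the difference turned. With a pseudocount of 0.1 it was -0.85 for *CCL24* with *CCR3*. Without 1 sample the differences ran from -0.26 to 0.85 for *CCL24* with *CCR3* and -2.28 to 1.60 for *IL8* with *CXCR2*. The other 9 pairs kept their sign. Depth relative to N1 was lowest in N8, and no count was available to bound the genes listed at 0.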

Other observations

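A pair of genes beside the family was picked after their values were seen. *PPBP*, the platelet chemokine CXCL7, had 0.0486 (N1), 36.6 (N3), 40.0 (N8) and 4.91 (N9) FPKM, and 0.0863 (T1), 6.37 (T3) and 25.4 (T10). Its log2 fold change was -0.73 ± 1.42 (SE), and N1 and T1 were both near 0. *DPP4*, a cell surface protease known to cut CXCL12 and other chemokines, had 54.0 (N1), 23.0 (N3), 1.10 (N8) and 15.4 (N9) FPKM, and 83.2 (T1), 15.97 (T3) and 1.82 (T10). N1 and T1 were its highest samples, and its log2 fold change was 0.12 ± 1.29 (SE).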
